A study of Mus musculus with 30 samples.

Results

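The genes described here make, degrade or read cyclic nucleotides, or switch off the G proteins that control their synthesis. They were taken by symbol from a table of 17775 genes: the adenylyl cyclases (Adcy and a number, 6 rows), the cyclic nucleotide phosphodiesterases (Pde and a number, 21 rows), the subunits of protein kinase A (Prkac and Prkar, 6 rows), the exchange factors Rapgef3 and Rapgef4, and the regulators of G protein signaling (Rgs and a number, 17 rows). This gave 52 genes. A few rows follow the naming rule without being such an enzyme or regulator. For example, Rgs7bp and Rgs9bp encode binding partners of RGS proteins, Pde6d encodes a prenyl-binding chaperone and Pde12 acts on RNA tails.

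RNA was sequenced in bulk from mouse islet cells sorted by their fluorescent reporters, giving 30 libraries in 5 groups. Alpha-cells of 3-month-old Glucagon-Venus mice gave 8 libraries (alpha). Alpha-cells of Glucagon-Venus; RIP-DTR mice, injected with diphtheria toxin (DT) at 2 months of age and taken 30 days later, gave 4 libraries (alpha DT). RIP-DTR places the toxin receptor under the rat insulin promoter, so that the toxin kills beta-cells. Alpha-cells of mice aged 3 months that carry Glucagon-rtTA and TetO-Cre together with R26YFP and CAG-Pdx1, in which Pdx1, a transcription factor of beta-cells, is switched on in cells that use the glucagon promoter, gave 5 libraries (alpha Pdx1). The same alleles with RIP-DTR, injected with the toxin at 2 months of age and taken 30 days later, gave 6 libraries (alpha Pdx1 DT), and beta-cells of 3-month-old Insulin-mCherry mice gave 7 libraries (beta). The sorted reporter (Venus or YFP) and the rtTA and Cre alleles change together with Pdx1, and RIP-DTR changes together with the toxin. Mouse line and reporter also change between beta and the alpha groups. In each case the contributions cannot be told apart. The labels do not say that libraries come from separate animals, so p-values measure only the spread between these samples, which may be technical.

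Hormone receptors that couple to stimulatory G proteins activate adenylyl cyclases, and receptors that couple to inhibitory G proteins restrain them. Cyclic AMP acts through protein kinase A and through the exchange factors, also called Epac, and phosphodiesterases end the signal. In islet cells cyclic AMP raises exocytosis of hormone granules, and in beta-cells it carries the response to incretins. RGS proteins speed up GTP hydrolysis by G protein alpha subunits and so shorten receptor signals.

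Values are the quantile-normalized log2 values that the authors deposited. Every library therefore has the same distribution, with a lower quartile of 5.95, a median of 8.55 and an upper quartile of 10.37, and a difference shows a change of rank within a library rather than of amount. In sorted bulk RNA, fewer cells of a type and less RNA per cell cannot be told apart. Levels are compared only for the same gene across libraries, since values are not given per length. Of the 52 genes, 49 reached a value of 5 in 4 or more libraries and were tested: 6 cyclases, 19 phosphodiesterases, 6 kinase A subunits, 2 exchange factors and 16 RGS rows. Rgs9bp, Pde6g and Pde9a did not reach that level, with group means between 1.55 and 4.01. The limma linear model was fitted to all 30 libraries, with Benjamini-Hochberg adjustment of p across the 16633 genes tested and a threshold of 0.05. Errors after ± are standard errors of log2 differences unless given as SD. A gene can pass the filter through a single group where it is high, so counts below are descriptions of the genes tested.

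Some libraries went against their labels or stood apart, and results are given with and without 5 of them. The library labelled alpha 8 had a Pdx1 value of 11.23 where the other alpha libraries had 3.66 to 5.61. The library labelled alpha Pdx1 DT 5 had a Pdx1 value of 5.51 where the others of its group had 11.53 to 12.59, and it correlated with alpha 4 at 0.993 over the genes tested, the highest of 435 pairs of libraries; the highest pair within a group reached 0.987. Over the genes described here those libraries differed by a median of 0.11, and pairs within a group by a median of 0.5 and at least 0.2. Alpha Pdx1 5 had a lower Pdx1 value (8.61) than the rest of its group, and beta 1 and beta 5 had glucagon at the top value of the scale, 22.56. In the other 25 libraries the mean of 6 alpha markers was 15.16 to 15.62 in alpha, 14.9 to 15.43 in alpha DT, 13.41 to 14.31 in alpha Pdx1, 13.63 to 14.37 in alpha Pdx1 DT and 8.86 to 9.9 in beta. The mean of 7 beta markers was 6.32 to 8.15, 6.79 to 7.71, 9.43 to 10.22, 10.18 to 10.74 and 14.81 to 15.15 in the same order. With the 5 libraries, alpha reached down to 14.18 for alpha markers and up to 10.22 for beta markers (the library labelled alpha 8), and beta reached up to 13.3 and down to 13.77 (beta 5 and beta 1). For alpha and beta markers, alpha Pdx1 5 had means of 15.4 and 8.66, and the library labelled alpha Pdx1 DT 5 had 15.62 and 6.37. The mean of 9 leukocyte and macrophage markers was higher in alpha DT (7.87 to 11.5) than in alpha (4.89 to 7.71). It spanned 5.06 to 11.29 in alpha Pdx1 DT, 6.75 to 10.93 in beta and 4.62 to 5.84 in alpha Pdx1. The table gives values only, so the depth is unknown.

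**Figure D1:**
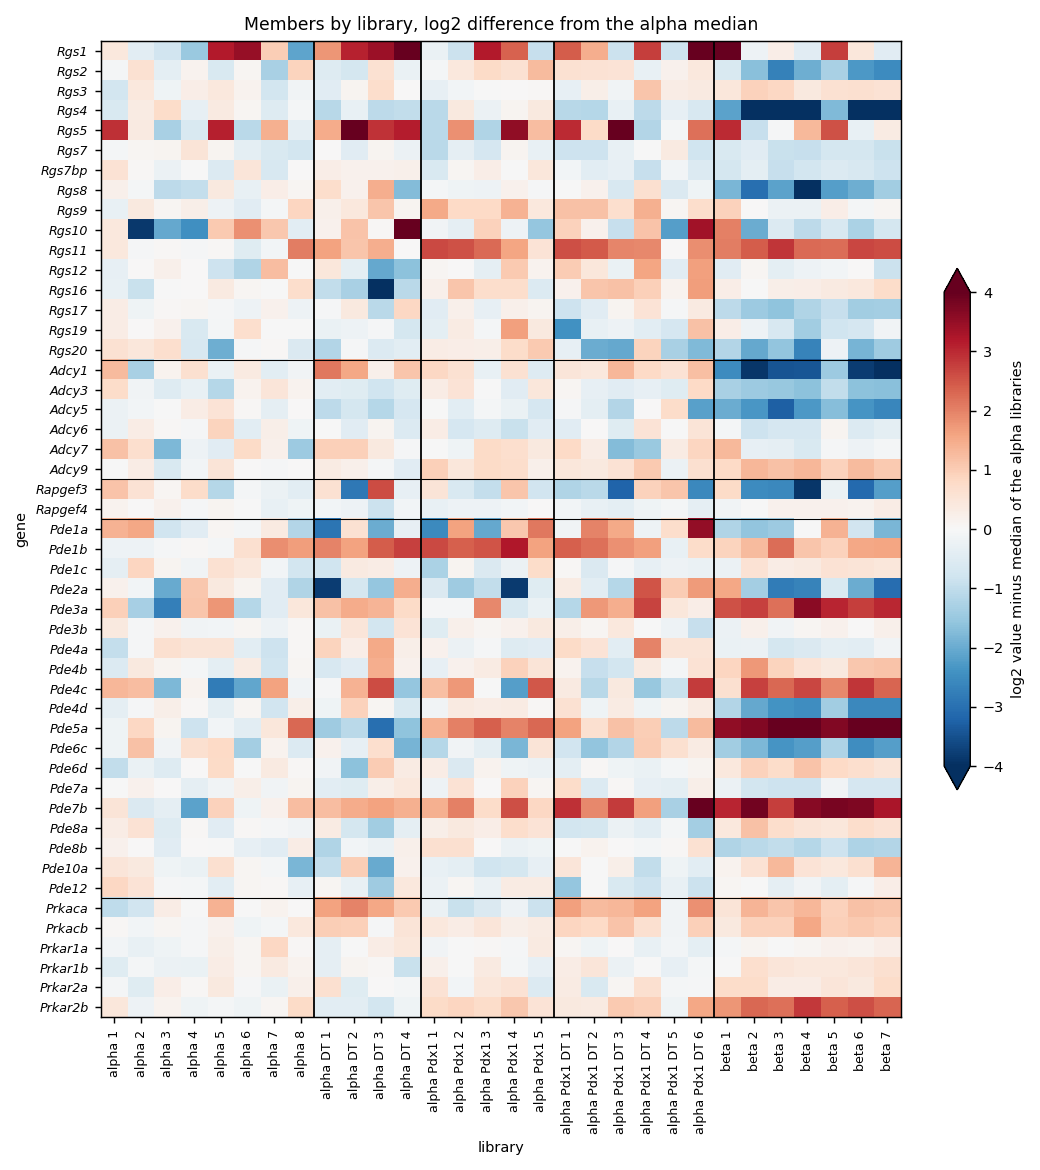
Heat map of the 49 genes tested (rows, grouped by family) in the 30 libraries (columns, grouped by cell type and treatment), colored by the log2 value minus the median of the alpha libraries, on a scale that saturates at 4 in either direction. The beta columns differ from the rest in rows such as Rgs4, Adcy1, Pde5a and Pde7b, and the column labelled alpha Pdx1 DT 5 stays close to the alpha median in most rows.

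The first comparison asks how mature beta-cells and alpha-cells differ. Of the 49 genes tested, 31 differed between beta and alpha, 15 higher and 16 lower in beta, a share of 63.3% beside 34.5% of all genes tested (16.9% higher and 17.6% lower). The median absolute log2 difference was 0.89 over these genes and 0.48 over all genes. In signed terms the medians were 0.02 and -0.0, so neither cell type had the higher values on balance. The families divided differently: 4 of 6 cyclases and 7 of 16 RGS rows were lower in beta, and 5 of 6 kinase A subunits were higher.

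Among cyclases, Adcy1, which is stimulated by calcium and calmodulin, differed most. Adcy1 (ENSMUSG00000020431.5, chromosome 11, 7063489 to 7178506, plus strand, build GRCm38) had values of 7.12, 8.41 and 9.66 (lowest, median, highest) in the 8 alpha libraries and of 4.3, 4.96 and 6.94 in the 7 beta libraries. The groups did not overlap, and the highest beta values, 5.9 and 6.94, were those of beta 1 and beta 5, whose alpha marker means were also the highest of their group (13.06 and 13.3). Adcy1 was lower in beta by -3.27 ± 0.36 on the log2 scale (limma, adjusted p = 7.72e-09), and by -3.79 without the 5 libraries that stood apart. Adcy5, a calcium-inhibited cyclase, was lower by -2.40 ± 0.30 (adjusted p = 1.29e-07) with no overlap between groups, and Adcy3 by -1.38 ± 0.25. Its close relative Adcy6 was lower by -0.51 ± 0.20, a call that was lost in 9 of 15 refits (leaving out alpha 2, 3, 5 or 7, or beta 2, 3, 4, 6 or 7), with values from -0.40 to -0.52. Adcy9 was the only cyclase tested that was higher in beta, by 1.11 ± 0.18 (adjusted p = 5.99e-06), and Adcy7 did not pass.

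Among the genes higher in beta, the phosphodiesterases had the largest differences, led by Pde5a, which breaks down cyclic GMP. Pde5a (ENSMUSG00000053965.10, chromosome 3, 122728947 to 122859374, plus strand) had values of 7.54, 8.37 and 10.66 in alpha and of 11.92, 12.6 and 12.99 in beta. The groups did not overlap, and the highest alpha value was that of the library labelled alpha 8. Pde5a was higher in beta by 3.82 ± 0.37 (limma, adjusted p = 1.35e-09), and by 4.30 without the 5 libraries. Pde7b, an enzyme specific for cyclic AMP (ENSMUSG00000019990.15, chromosome 10, 20398004 to 20725078, minus strand), had values of 3.85, 5.99 and 7.21 in alpha and of 8.74, 9.63 and 9.84 in beta. Again no beta library reached down to the alpha range, and the difference was 3.49 ± 0.51 (adjusted p = 1.8e-06).

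Other phosphodiesterases moved in both directions. Pde3a, whose activity is inhibited by cyclic GMP, was higher in beta by 3.01 ± 0.54, and its relative Pde3b, which is known to limit insulin secretion, had means of 12.32 in alpha and 12.34 in beta. Members of the cyclic AMP-specific Pde4 group went apart: Pde4c was higher by 2.52 ± 0.74 and Pde4b by 1.06 ± 0.27, while Pde4d was lower by -1.97 ± 0.22 (adjusted p = 9.22e-09) with no overlap. Pde8a was higher by 0.68 ± 0.20 and Pde8b lower by -1.0 ± 0.20, which is also an opposite pair within a group of close relatives. Pde6c, known from cone photoreceptors, was lower by -2.02 ± 0.48 but lay low in both groups (means 4.97 in alpha and 2.95 in beta). Pde7a was lower by -0.57 ± 0.20, and the chaperone gene Pde6d was higher by 0.82 ± 0.26. Pde7a lost its call without alpha 6, beta 2, beta 3 or beta 4 (-0.53 to -0.54).

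Every kinase A subunit except Prkar1a was higher in beta. Prkar2b (ENSMUSG00000002997.15, chromosome 12, 31958476 to 32061296, minus strand), a type II regulatory subunit that anchoring proteins hold in place, had values of 8.26, 8.46 and 9.22 in alpha and of 10.23, 10.8 and 11.29 in beta. All beta libraries lay above all alpha libraries, and the difference was 2.24 ± 0.21 (limma, adjusted p = 2.19e-10). The catalytic subunits Prkaca and Prkacb were higher by 1.07 ± 0.26 and 0.91 ± 0.17, and the regulatory subunits Prkar2a and Prkar1b by 0.52 ± 0.19 and 0.48 ± 0.16. Prkar2a lost its call in 7 of 15 refits (without alpha 1, 2, 6 or 7, or beta 1, 2 or 7; 0.45 to 0.51), without the 5 libraries (0.51, adjusted p = 0.0742) and with the leukocyte marker mean as a covariate (0.47, adjusted p = 0.0915), and Prkar1b without alpha 1 (0.41). Prkar1a, a type I regulatory subunit, had means of 14.32 ± 0.35 (SD, n = 8) in alpha and 14.35 ± 0.12 (SD, n = 7) in beta. Of the exchange factors, Rapgef3 (Epac1) was lower in beta by -2.06 ± 0.72, and Rapgef4 (Epac2), the form known for its part in insulin secretion, had means of 12.44 and 12.56 and did not pass. Rapgef3 lay low in both groups (means 5.0 and 2.94) and lost its call without beta 4 (-1.74) or beta 6 (-1.87), and with an offset added before taking logs (-0.36, adjusted p = 0.163).

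Of the 49 genes, the RGS gene Rgs4 stood furthest below alpha in beta. Rgs4, which acts on inhibitory and Gq-class G proteins, had values of 12.16, 12.77 and 13.5 in alpha and of 6.54, 7.81 and 11.02 in beta. The groups did not overlap, and beta 1 (10.62) and beta 5 (11.02), the beta libraries with high glucagon, lay far above the other beta libraries (6.54 to 8.51). Rgs4 was lower in beta by -4.41 ± 0.49 (limma, adjusted p = 4.33e-08), and by -5.40 without the 5 libraries. Rgs8, a close relative of Rgs4, was lower by -2.23 ± 0.40, and Rgs2, which prefers Gq, by -1.78 ± 0.29. Rgs17 (-1.28 ± 0.21) and Rgs20 (-1.39 ± 0.43), which act on inhibitory G proteins including Gnaz, were lower too, as were Rgs7 (-0.61 ± 0.19) and its membrane anchor Rgs7bp (-0.64 ± 0.18). Rgs11, a relative of Rgs7 that works as a dimer with Gnb5, went the other way. Rgs11 (ENSMUSG00000024186.15, chromosome 17, 26202951 to 26211324, plus strand) had values of 7.79, 8.29 and 10.33 in alpha and of 10.32, 10.7 and 11.15 in beta. The groups overlapped only through the library labelled alpha 8, at 10.33, and Rgs11 was higher in beta by 2.21 ± 0.35 (adjusted p = 8.78e-06). Rgs3 was higher by 0.70 ± 0.21.

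Rgs4, Rgs2 and Rgs8, the RGS genes with the lowest beta values relative to alpha, lie on chromosome 1, which carries 9 of the 52 genes, 8 of them RGS rows. Rgs4 (ENSMUSG00000038530.11, 169741477 to 169747642, minus strand) is 45.7 kb from Rgs5, Rgs8 is 40.0 kb from Rgs16, and Rgs2 is 238 kb from Rgs1. Of the neighbours, Rgs5, Rgs16 and Rgs1 differed between beta and alpha by 0.28, 0.33 and 0.69, none past the threshold. The 250 bases before a RefSeq start (build GRCm38.p6) are shown for these 3 genes, all lower in beta, and for Prkaca, which was higher in several comparisons. Each stretch is written 5′ to 3′ on the strand of the gene. They are chr1:169747643-169747892 on the minus strand for Rgs4, chr1:144004150-144004399 on the minus strand for Rgs2, chr1:153652787-153653036 on the plus strand for Rgs8 and chr8:83972728-83972977 on the plus strand for Prkaca. Capitals mark TGACG on either strand, the short form of the cyclic AMP response element.
Rgs4: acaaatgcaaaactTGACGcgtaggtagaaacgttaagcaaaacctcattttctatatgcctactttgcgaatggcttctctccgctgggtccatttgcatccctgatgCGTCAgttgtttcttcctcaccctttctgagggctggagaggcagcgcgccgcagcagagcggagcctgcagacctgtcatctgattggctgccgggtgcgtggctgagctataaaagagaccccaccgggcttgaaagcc
Rgs2: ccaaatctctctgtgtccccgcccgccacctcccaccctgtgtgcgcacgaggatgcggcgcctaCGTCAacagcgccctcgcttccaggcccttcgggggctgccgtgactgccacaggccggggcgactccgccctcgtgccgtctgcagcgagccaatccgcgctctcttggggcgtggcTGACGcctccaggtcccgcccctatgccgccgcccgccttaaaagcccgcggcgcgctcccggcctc
Rgs8: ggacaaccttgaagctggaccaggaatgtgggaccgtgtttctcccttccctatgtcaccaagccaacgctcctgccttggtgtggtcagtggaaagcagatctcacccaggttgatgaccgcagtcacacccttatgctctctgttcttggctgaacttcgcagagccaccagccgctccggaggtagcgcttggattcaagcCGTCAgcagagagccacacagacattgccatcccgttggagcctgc
Prkaca: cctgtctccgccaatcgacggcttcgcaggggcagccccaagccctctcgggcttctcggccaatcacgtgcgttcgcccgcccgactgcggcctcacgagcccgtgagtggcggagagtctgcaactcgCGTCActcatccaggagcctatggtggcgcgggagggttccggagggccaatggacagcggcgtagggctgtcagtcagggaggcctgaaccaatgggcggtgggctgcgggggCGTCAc

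These stretches hold 2, 2, 1 and 2 copies of the short form in the order shown. For each gene the first window with a match was shown, so at least 1 copy was fixed in advance. Other windows of Rgs8 and Prkaca hold no match. In windows of 300 bases (250 before and 50 after a start), TGACG on either strand was found in 20.8% of 32851 RefSeq windows and in 25% of 84 windows of the 41 genes described here that have at least 1 window. The full element, TGACGTCA, which contains the short form on each strand, was found in 1.79% of all windows and in 2.38% of these windows. The latter are 2 overlapping windows of Prkar1a that hold the same match. The shares are close to those of all promoters, and a match describes letters only.

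**Figure D2:**
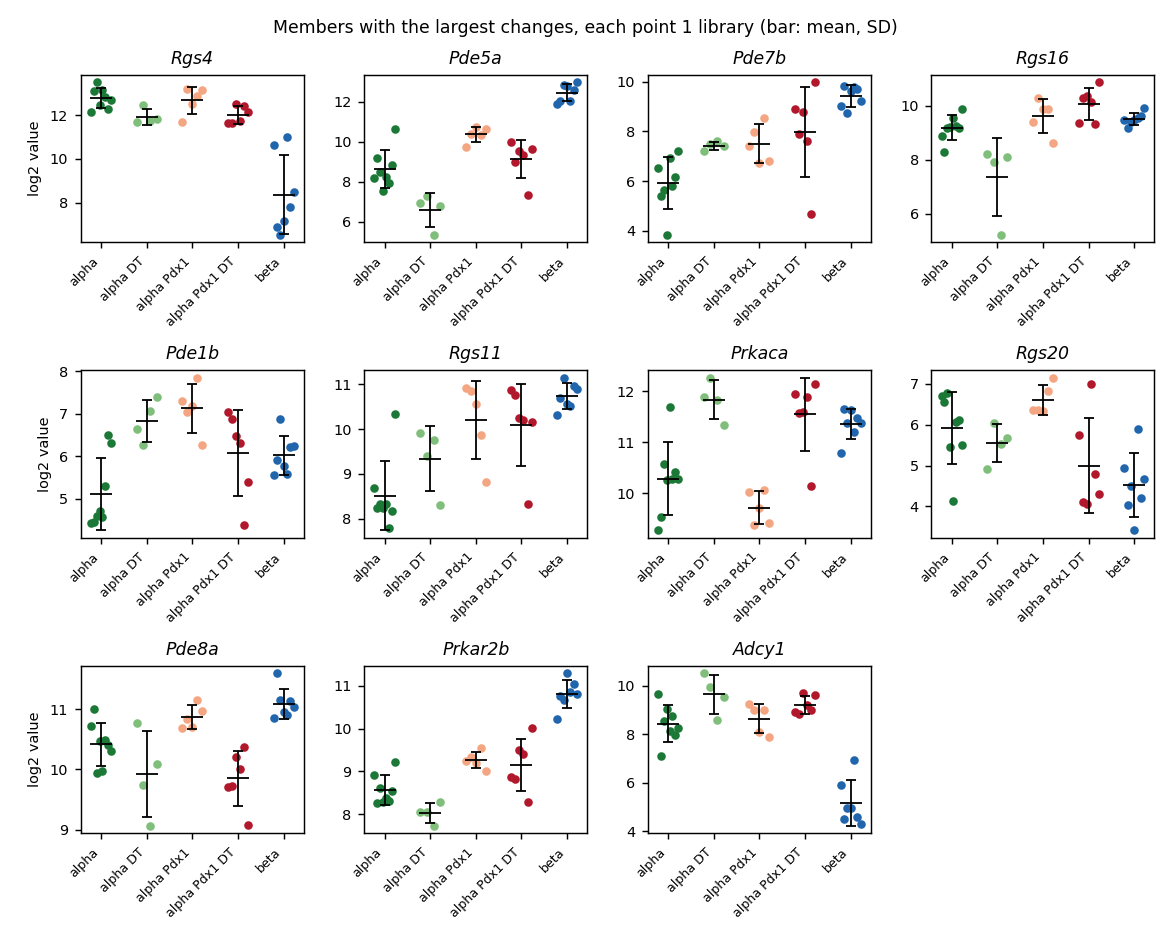
Values of 11 genes, the 3 largest changes past the threshold in each comparison, as log2 values by group; each point is 1 library and bars give the mean and SD. Rgs4 and Adcy1 are lowest in beta, Pde5a and Prkar2b highest, and Prkaca lies between 9.39 and 10.07 in alpha Pdx1 but between 11.34 and 12.26 in alpha DT.

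The same comparison in lists of related genes is read against the 34.5% of all genes that passed, 16.9% higher and 17.6% lower. Of 16 receptors that act on adenylyl cyclase, 7 were higher and 4 lower in beta, with Glp1r, the incretin receptor, at 8.35 ± 0.55, Gcgr at 7.50 ± 0.59 and the adrenergic receptor Adra2a at 6.25 ± 0.99. Of 24 G protein subunits, 4 were higher and 7 lower, with Gng12 at 3.35 ± 0.18, the inhibitory subunit Gnai1 at -2.17 ± 0.19 and the stimulatory subunit Gnas at -2.16 ± 0.43. Of 15 anchors and inhibitors of kinase A, 4 were higher and 2 lower, with the anchors Akap6 at 4.45 ± 0.47 and Akap12 at -3.89 ± 0.33. In the cyclic GMP arm, which supplies the substrate of Pde5a, 3 of 9 genes were higher and 4 lower: the kinase Prkg2 was at 5.76 ± 0.53 and the receptor cyclases Npr1 and Gucy2c were at 5.14 ± 0.51 and 4.68 ± 0.57. The kinase Prkg1 was lower, by -2.55 ± 0.23. Of 11 CREB factors and coactivators, 0 were higher and 3 lower, with Sik1 at -2.17 ± 0.54. In either direction together, the shares of the CREB list and of the anchors lie near that background.

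The next comparison asks how alpha-cells differ 30 days after the toxin, without Pdx1. Of the 49 genes tested, 4 changed in alpha DT against alpha, 2 in each direction, or 8.16% beside 3.26% of all genes tested (1.57% higher and 1.7% lower). Pde5a and Rgs16 fell, and Prkaca and Pde1b rose. The median difference over the 49 genes was -0.02 and over all genes -0.06.

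Pde5a had values of 6.94, 7.29, 5.34 and 6.76 in the 4 alpha DT libraries, all below the lowest alpha value of 7.54. It fell by -2.06 ± 0.44 (limma, adjusted p = 0.0101). Rgs16, a relative of Rgs4 (ENSMUSG00000026475.7, chromosome 1, 153740349 to 153745468, plus strand), had values of 8.3, 9.2 and 9.89 in alpha and of 8.21, 7.91, 5.21 and 8.11 in alpha DT. The groups did not overlap, but 3 of the 4 alpha DT libraries lay just under the alpha range and alpha DT 3 lay far below it. Rgs16 fell by -1.82 ± 0.39 (adjusted p = 0.00895).

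Prkaca (ENSMUSG00000005469.10, chromosome 8, 83972993 to 83996443, plus strand), the main catalytic subunit of kinase A, had values of 9.28, 10.29 and 11.68 in alpha and of 11.89, 12.26, 11.83 and 11.34 in alpha DT. All but alpha DT 4 lay above every alpha library, and the highest alpha value was that of alpha 5. Prkaca rose by 1.54 ± 0.31 (limma, adjusted p = 0.00618). Pde1b, a calcium- and calmodulin-dependent enzyme that cleaves both nucleotides (ENSMUSG00000022489.6, chromosome 15, 103503034 to 103530052, plus strand), had values of 4.44, 4.65 and 6.51 in alpha and of 6.63, 6.26, 7.06 and 7.39 in alpha DT. It rose by 1.73 ± 0.46 (adjusted p = 0.0331), with alpha 7 and alpha 8 in the range of alpha DT. That call was lost in 6 of 12 refits (without alpha 1, 2, 3 or 4, or alpha DT 3 or 4; 1.55 to 1.67). With the leukocyte marker mean as a covariate, in a fit that called 0.836% of all genes, Prkaca stood at 1.17 (adjusted p = 0.101) and Pde1b at 1.65 (adjusted p = 0.136), and Pde5a and Rgs16 kept their calls at -2.22 and -2.36. When only the alpha and alpha DT libraries were fitted, 0 of the 4 passed (adjusted p from 0.0546 to 0.132), beside 0.397% of all genes. Without the 5 libraries 7 genes passed, beside 3.26% of all genes, the additional ones being Pde7b (1.67 ± 0.45), Rgs11 (1.08 ± 0.26) and Prkacb (0.62 ± 0.17). Among related genes, the G protein subunit Gng3 (1.70 ± 0.49) and the anchor Akap2 (3.00 ± 0.81) rose and the anchor Akap9 fell by -0.83 ± 0.22, while 0 of 11 CREB genes, 0 of 9 cyclic GMP genes and 0 of 16 receptors passed.

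Rgs1, Rgs5 and Rgs10 had the largest differences between alpha DT and alpha that did not pass, and markers of leukocytes were high in the same group. Rgs1, which is known from lymphocytes, had values of 1.4, 3.51 and 6.98 in alpha and of 5.27, 6.58, 6.93 and 10.63 in alpha DT, a difference of 3.43 ± 1.20 (limma, adjusted p = 0.103). Rgs10, known from microglia and macrophages, had values of 1.03, 4.9 and 6.72 in alpha and of 5.07, 6.05, 4.94 and 10.35 in alpha DT (2.26 ± 1.01, adjusted p = 0.203). The library with the highest Rgs1 and Rgs10, alpha DT 4, also had the highest leukocyte marker mean, 11.5. Rgs5, a marker of pericytes, had values of 0.8, 2.1 and 5.2 in alpha and of 3.59, 6.98, 4.99 and 5.26 in alpha DT (2.54 ± 1.01, adjusted p = 0.148). The mean of Col1a1, Col1a2, Col3a1 and Dcn, matrix genes of fibroblasts, was 6.16 to 7.63 in alpha DT and 6.21 to 9.38 in alpha; that mean holds no marker specific to pericytes. All 9 leukocyte markers in the table had a higher median in alpha DT than in alpha, among them Ptprc (8.1 and 6.08), which defines leukocytes, and Csf1r (9.86 and 4.97). Marker means of PP, delta, acinar, duct and endothelial cells had higher medians in alpha DT as well, though some single markers went the other way. Ppy, the hormone of PP cells, was 17.92 to 18.63 in alpha DT and 14.97 to 17.92 in alpha. The mean of 3 delta-cell markers was 11.39 to 13.63 (median 12.54) and 10.81 to 12.11 (median 11.19), and that of 8 acinar markers was 8.34 to 14.54 (median 13.42) and 6.9 to 13.58 (median 10.76). The endothelial gene Pecam1 was 5.02 to 6.35 in alpha DT and 0.76 to 5.52 in alpha. Esam, the other endothelial marker measured, had a lower median in alpha DT (7.07) than in alpha (7.35). The mean of 4 duct markers was 6.27 to 7.35 in alpha DT and 6.05 to 8.2 in alpha. The part of other cells in these values, and in the 4 genes that changed in alpha DT, was not tested beyond the leukocyte covariate.

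**Figure D3:**
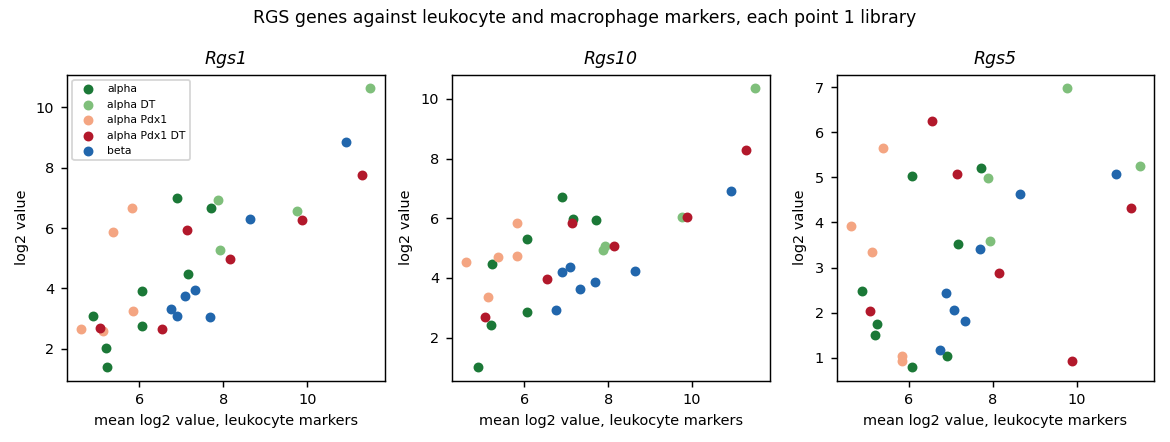
Log2 values of Rgs1, Rgs10 and Rgs5 (vertical axes) against the mean log2 value of 9 leukocyte and macrophage markers (horizontal axes), with 1 point per library colored by group. The alpha DT library with the highest marker mean, 11.5, has the highest Rgs1 (10.63) and Rgs10 (10.35) values, while the highest Rgs5 value lies at a marker mean of 9.76.

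The comparison of alpha Pdx1 with alpha asks how alpha-cells with the Pdx1 alleles differ from control alpha-cells when beta-cells are present. Here 4 of 49 genes changed, all of them higher, or 8.16% beside 4.33% of all genes tested (2.36% higher and 1.98% lower). The 4 were Pde1b, Pde5a, Rgs11 and Rgs9. The median difference was 0.24 over the 49 genes and 0.03 over all genes.

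Pde1b had values of 7.3, 7.04, 7.17, 7.85 and 6.26 in the 5 alpha Pdx1 libraries, where the alpha median was 4.65. All but alpha Pdx1 5 lay above every alpha library, and Pde1b rose by 2.02 ± 0.43 (limma, adjusted p = 0.00615). Pde5a had values of 9.76, 10.38, 10.76, 10.35 and 10.66, all above the alpha libraries other than alpha 8, and rose by 1.74 ± 0.41 (adjusted p = 0.0123). Rgs11 had values of 10.91, 10.84, 10.57, 9.88 and 8.82, the lowest again in alpha Pdx1 5, and rose by 1.69 ± 0.39 (adjusted p = 0.011).

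Rgs9, a relative of Rgs11 that is known for ending signals in photoreceptors and striatal neurons, rose by 0.91 ± 0.24 (limma, adjusted p = 0.0211). It lost its call without alpha 6 (0.84), alpha Pdx1 1 (0.78) or alpha Pdx1 4 (0.81). Without the 5 libraries, 7 genes passed (6.61% of all genes), the additional ones being Pde7b (1.92 ± 0.45), Prkar2b (0.85 ± 0.22) and Adcy9 (0.72 ± 0.20), and the first 4 stood at 2.41, 1.96, 2.29 and 1.17 in the order Pde1b, Pde5a, Rgs11 and Rgs9. Among related genes, the anchor Akap6 (2.07 ± 0.51), the soluble guanylyl cyclase subunit Gucy1b3 (2.03 ± 0.46), the receptors Adora1 (2.21 ± 0.54) and Adra2a (3.70 ± 1.09) and the kinase Sik2 (0.86 ± 0.25) rose, and the G protein subunit Gnao1 fell by -0.63 ± 0.17. The mean of 8 acinar markers was 4.04 to 11.68 (median 5.08) in alpha Pdx1 and 6.9 to 13.58 (median 10.76) in alpha. Ppy went the other way, with medians of 17.31 and 15.88. The part of such cells was not tested. The ribosomal RNA row Rn18s-rs5 was 16.9 to 18.27 in alpha Pdx1 and 17.68 to 20.54 in alpha. With that row as a covariate, in a fit that called 0.685% of all genes, of the 4 genes only Pde1b passed (2.32, adjusted p = 0.0438), and Pde5a and Rgs11 stood at 1.88 and 1.67 (adjusted p = 0.0883 and 0.108) and Rgs9 at 0.67 (adjusted p = 0.313).

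Pdx1 together with the toxin was compared with untreated alpha-cells next. In alpha Pdx1 DT against alpha, 5 of 49 genes changed, all higher, or 10.2% beside 7.81% of all genes tested (4.06% higher and 3.75% lower): Pde7b, Rgs11, Prkaca, Rgs9 and Prkacb. Pde7b had values of 4.69, 8.34 and 9.98 (lowest, median, highest) and rose by 2.04 ± 0.53 (limma, adjusted p = 0.0189). Rgs11 had values of 8.32, 10.22 and 10.88 and rose by 1.57 ± 0.37 (adjusted p = 0.0132). Prkaca had values of 10.15, 11.74 and 12.13 and rose by 1.25 ± 0.28 (adjusted p = 0.011). In all 3 genes the lowest value was that of the library labelled alpha Pdx1 DT 5, and the other libraries of the group lay above the alpha median. Prkacb rose by 0.67 ± 0.17 and Rgs9 by 0.81 ± 0.23.

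That library weighed on the count. Without it, 11 of 49 genes passed, beside 21% of all genes, so the count is near that background. With all libraries 7.81% of all genes passed, so the gain of calls extended over the whole table. Pde1b (1.31 ± 0.39), Rgs16 (1.03 ± 0.35), Prkar2b (0.75 ± 0.21) and Adcy9 (0.61 ± 0.18) were higher as well, and Pde12 (-0.85 ± 0.27) and Pde8a (-0.67 ± 0.22) were lower. Without the 5 libraries the count was 13 (20.3% of all genes), with Pde5a (1.15 ± 0.29) and Rgs4 (-0.85 ± 0.29) added, and Pde7b, Rgs11 and Prkaca stood at 2.88, 2.19 and 1.53. Without alpha Pdx1 DT 1 or alpha Pdx1 DT 6 the count was 2, beside 3.07% and 1.85% of all genes. Pde7b lost its call in both of these refits (1.86 and 1.64), Prkacb in these and without alpha Pdx1 DT 3 (0.58 to 0.64), and Rgs9 without alpha 1 or 6, or alpha Pdx1 DT 1, 2, 4 or 6 (0.70 to 0.84). With Rn18s-rs5 or the leukocyte marker mean as a covariate, or with only these groups fitted, 0 of the 5 passed (for Prkaca 0.62, 1.03 and 1.25, adjusted p = 0.37, 0.0938 and 0.0813). These fits called 0, 85 and 0 of all 16633 genes, so the loss of calls extended over the whole table.

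**Figure D4:**
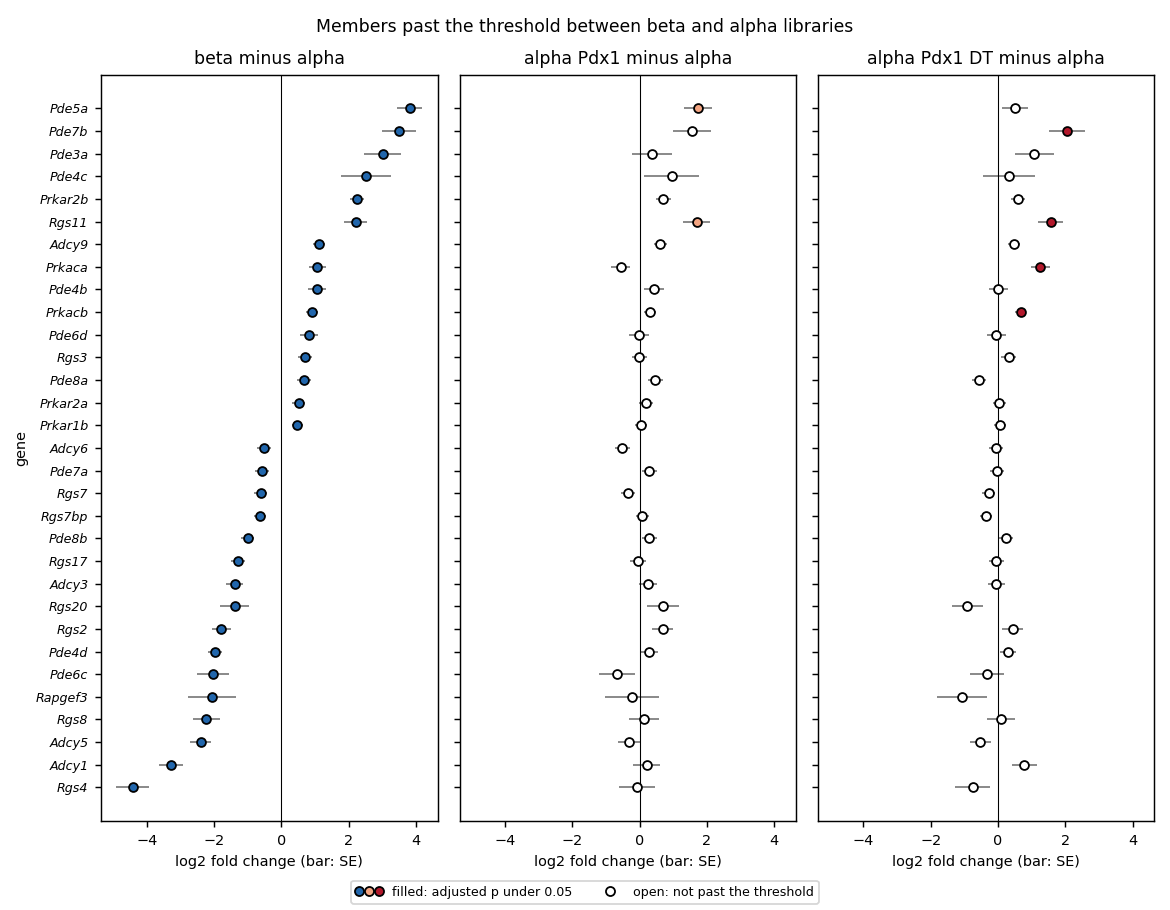
Log2 differences from alpha, with standard errors as bars, for the 31 genes that differed between beta and alpha (left), in alpha Pdx1 (middle) and in alpha Pdx1 DT (right). Filled points passed the threshold; Pde5a and Rgs11 are filled in the middle panel and Pde7b, Rgs11, Prkaca and Prkacb in the right panel, and none of the genes lower in beta is filled in either. All panels share the alpha libraries.

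The related lists changed in the same comparison as follows. Of 9 genes of the cyclic GMP arm, 3 rose: Gucy2c (2.03 ± 0.60), Gucy1b3 (1.99 ± 0.44) and Gucy1a3 (1.66 ± 0.44). Of 16 receptors, Adra2a (3.47 ± 1.03) and Adora1 (1.93 ± 0.51) rose and 0 fell, and of 15 anchors and inhibitors only Akap6 (2.13 ± 0.49) changed. Of 24 G protein subunits, Gng7 (1.16 ± 0.31) and Gnb2 (0.81 ± 0.20) rose and Gng10 fell by -0.90 ± 0.26, and of 11 CREB factors and coactivators 0 changed. Glp1r, Gcgr, Npr1 and Prkg2, which were far higher in beta, did not pass here.

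The toxin's contrast within Pdx1-expressing cells, alpha Pdx1 DT against alpha Pdx1, held 3 changed genes of 49, or 6.12% beside 9.22% of all genes tested (4.83% higher and 4.39% lower), a share below the background. Prkaca had values of 10.02, 9.39, 9.72, 10.07 and 9.43 in alpha Pdx1, and all alpha Pdx1 DT libraries lay above these. It rose by 1.82 ± 0.31 (limma, adjusted p = 0.00206), and by 2.02 without the 5 libraries. Pde8a, which has a high affinity for cyclic AMP (ENSMUSG00000025584.17, chromosome 7, 81213596 to 81334533, plus strand), had values of 10.69, 10.84, 10.7, 11.15 and 10.97 in alpha Pdx1 and of 9.08, 9.87 and 10.37 in alpha Pdx1 DT. The groups did not overlap, and Pde8a fell by -1.02 ± 0.24 (adjusted p = 0.00913).

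Rgs20 (ENSMUSG00000002459.17, chromosome 1, 4909576 to 5070285, minus strand) had values of 6.37, 6.35, 6.32, 6.84 and 7.15 in alpha Pdx1 and of 4.05, 4.55 and 6.98 in alpha Pdx1 DT. Alpha Pdx1 DT 4 lay within the alpha Pdx1 range and the rest lay below it. Rgs20 fell by -1.61 ± 0.51 (limma, adjusted p = 0.042), a call lost in 7 of 11 refits (without alpha Pdx1 2, 3, 4 or 5, or alpha Pdx1 DT 2, 3 or 6; -1.42 to -1.68) and without the 5 libraries (-1.43, adjusted p = 0.11). Rn18s-rs5 was 19.87 to 22.56 in alpha Pdx1 DT and 16.9 to 18.27 in alpha Pdx1, with no overlap. With it as a covariate, in a fit that called 0 of 16633 genes, Prkaca stood at 0.45, Pde8a at -0.64 and Rgs20 at 0.06, none past the threshold, and with the leukocyte marker mean (0.222% of all genes called) they stood at 1.5 (adjusted p = 0.051), -0.70 and -1.81. The mean of 8 acinar markers was 6.54 to 14.62 (median 10.97) in alpha Pdx1 DT and 4.04 to 11.68 (median 5.08) in alpha Pdx1. That of 3 delta-cell markers had medians of 12.19 and 11.09, and that of 4 matrix genes was lower, with medians of 7.7 and 8.17. The part of any of these in the result was not tested. Of related genes, 4 of 24 G protein subunits rose, with Gnb2 at 1.10 ± 0.22, Gng7 at 1.08 ± 0.35 and Gnao1 at 0.79 ± 0.19, the CREB coactivators Crtc2 (0.97 ± 0.22) and Crtc1 (0.81 ± 0.22) rose, and the CREB-related repressor Crem (-1.34 ± 0.35) and the anchor Akap9 (-0.74 ± 0.21) fell. Without the library labelled alpha Pdx1 DT 5, Prkacb also passed (0.52 ± 0.18).

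After the toxin, the addition of Pdx1 was read from alpha Pdx1 DT against alpha DT. Here 3 of 49 genes changed, all higher, or 6.12% beside 2.1% of all genes tested (1.78% higher and 0.319% lower). Rgs16 had values of 9.34, 10.23 and 10.88 in alpha Pdx1 DT, all above the alpha DT libraries, whose highest value was 8.21. It rose by 2.71 ± 0.41 (limma, adjusted p = 0.000586). Pde5a had values of 7.33, 9.45 and 9.98, all above the highest alpha DT value of 7.29, and rose by 2.55 ± 0.46 (adjusted p = 0.00357). Prkar2b had values of 8.06, 8.05, 7.74 and 8.29 in alpha DT and of 8.29, 9.13 and 10.01 in alpha Pdx1 DT, where the lowest was again the library labelled alpha Pdx1 DT 5. It rose by 1.12 ± 0.26 (adjusted p = 0.0189) and lost its call without alpha DT 3 (1.02).

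Without the 5 libraries, Rgs11 (1.11 ± 0.27) and Rgs12 (1.78 ± 0.51) passed too, in a fit that called 5.73% of all genes, and Rgs16, Pde5a and Prkar2b stood at 2.86, 2.92 and 1.29. Without only the library labelled alpha Pdx1 DT 5, Rgs12 passed as well (1.78 ± 0.48). When only these groups were fitted, 0 of the 3 passed (limma, adjusted p from 0.0742 to 0.357), and 0 of all 16633 genes did. In the cyclic GMP arm, Gucy1b3 (2.10 ± 0.52) and Gucy1a3 (2.04 ± 0.53), which together form the soluble guanylyl cyclase, rose in this comparison, as did the receptor Adora1 (2.24 ± 0.61) and the CREB coactivator Crtc1 (0.85 ± 0.23).

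Rgs16 and Pde5a had their lowest group means in alpha DT. The means of Rgs16 were 9.19 ± 0.47 (SD, n = 8) in alpha, 7.36 ± 1.44 (n = 4) in alpha DT, 9.62 ± 0.64 (n = 5) in alpha Pdx1, 10.07 ± 0.61 (n = 6) in alpha Pdx1 DT and 9.52 ± 0.23 (n = 7) in beta. Those of Pde5a were 8.64 ± 0.97, 6.58 ± 0.85, 10.38 ± 0.39, 9.14 ± 0.94 and 12.46 ± 0.44 in the same order. The comparisons with alpha DT share its 4 libraries, and those with alpha share its 8.

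Whether the toxin's difference itself changed with Pdx1 was tested as an interaction. With limma, 0 of 49 genes and 0 of 16633 passed, beside 6 and 1527 at an unadjusted p under 0.05. In a check on simulated data, this contrast recovered 14 of 100 genes changed by 1 on the log2 scale and 71 of 100 changed by 2. Smaller interactions can therefore be missed. Pde1b had the smallest p of the 49: the toxin's difference was 1.73 without Pdx1 and -1.05 with it, an interaction of -2.78 ± 0.65 (unadjusted p = 0.000139, adjusted p = 0.242). Rgs16 differed by -1.82 without Pdx1 and 0.45 with it, an interaction of 2.27 ± 0.54 (unadjusted p = 0.000197, adjusted p = 0.273). The others were Pde2a (3.03 ± 1.19), Pde1a (2.46 ± 1.18), Adcy6 (0.76 ± 0.33) and Rgs7bp (-0.68 ± 0.30), with adjusted p from 0.454 to 0.533. Prkaca, which rose after the toxin in both backgrounds, had an interaction of 0.28.

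Finally, alpha Pdx1 DT was compared with beta, to ask how far the treated alpha-cells remained from beta-cells in these genes. Of the 49 genes, 24 differed, 14 higher and 10 lower than in beta, a share of 49.0% beside 26.3% of all genes tested (12.9% higher and 13.4% lower). The median absolute difference was 0.86 beside 0.44 over all genes. Rgs4 stood 3.65 ± 0.52 above beta (limma, adjusted p = 4.78e-06), with values of 11.64, 11.92 and 12.49 in alpha Pdx1 DT and no overlap with beta. Adcy1 stood 4.05 ± 0.39 above beta (adjusted p = 9.3e-10), with values of 8.84, 9.1 and 9.72, also without overlap. Pde5a stood -3.33 ± 0.40 below beta (adjusted p = 1.26e-07), and its highest value in alpha Pdx1 DT, 9.98, lay under the lowest beta value of 11.92.

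By family, 3 cyclases were higher than in beta (Adcy1, Adcy5 at 1.86 ± 0.33 and Adcy3 at 1.33 ± 0.27) and Adcy9 was lower by -0.64 ± 0.19. Of the RGS rows, 5 were higher and 0 lower: besides Rgs4, these were Rgs8 (2.31 ± 0.43), Rgs2 (2.21 ± 0.31), Rgs17 (1.23 ± 0.22) and Rgs9 (0.77 ± 0.23). Rgs11 stood at -0.64 and did not pass. Of kinase A, Prkar2b was lower by -1.66 ± 0.22 (limma, adjusted p = 5.1e-07), while Prkaca, at 0.19, and the remaining subunits did not pass. Rapgef4 was lower by -0.35 ± 0.13. Phosphodiesterases divided into 6 higher and 7 lower. Above beta were Pde4d (2.27 ± 0.24), Pde2a (2.23 ± 0.77), Pde1a (2.01 ± 0.76), Pde6c (1.69 ± 0.52), Pde8b (1.22 ± 0.22) and Pde4a (1.05 ± 0.30). Of these, Pde2a, Pde1a and Pde6c lay low in both groups. Their means were 5.53, 5.21 and 4.64 in alpha Pdx1 DT and 3.3, 3.2 and 2.95 in beta, all under the lower quartile of 5.95. Below beta, besides Pde5a, were Pde4c (-2.19 ± 0.79), Pde3a (-1.93 ± 0.59), Pde7b (-1.45 ± 0.54), Pde8a (-1.24 ± 0.22), Pde4b (-1.06 ± 0.29) and Pde6d (-0.87 ± 0.28).

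Without the 5 libraries, 25 genes differed from beta, beside 25.5% of all genes. Pde3a (-1.86, limma, adjusted p = 0.0505), Pde4c (-2.38, adjusted p = 0.0508) and Pde7b (-0.79, adjusted p = 0.213) lost their calls there. Pde7a (0.78 ± 0.25), Adcy6 (0.65 ± 0.24), Pde10a (-1.02 ± 0.36) and Pde1c (-0.67 ± 0.25) passed in addition.

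Some of these calls were also lost when a single library was left out. Pde7b lost its call in 8 of 13 refits, and without the library labelled alpha Pdx1 DT 5 it stood at -0.79 (limma, adjusted p = 0.182). Without beta 2, 4, 5, 6 or 7, or alpha Pdx1 DT 2 or 4, it stood between -1.38 and -1.48. Pde4c was lost in 9 refits (without alpha Pdx1 DT 1, 2, 4 or 5, or beta 2, 3, 4, 6 or 7; -1.89 to -2.27), and Pde1a in 8 (without alpha Pdx1 DT 2, 3 or 6, or beta 1, 2, 3, 6 or 7; 1.55 to 2.01). Rapgef4 was also lost in 8 (without alpha Pdx1 DT 2, 3 or 6, or beta 3, 4, 5, 6 or 7; -0.32 to -0.34). Pde2a was lost in 6 (without alpha Pdx1 DT 4 or 6, or beta 3, 4, 6 or 7; 1.86 to 2.16) and Pde3a without alpha Pdx1 DT 1 (-1.53). Among related genes, Glp1r (-6.94 ± 0.59), Gcgr (-6.28 ± 0.64) and Prkg2 (-5.45 ± 0.57) lay far below beta, and Akap12 (3.94 ± 0.36) and Gucy1b3 (3.54 ± 0.45) above it.

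Over all comparisons, 38 of the 49 genes passed at least once. The matching share of all genes was not counted, and beta against alpha alone called 34.5% of them. The count of 38 is therefore a description only. The 11 that did not pass were Rgs1, Rgs5, Rgs10, Rgs12, Rgs19, Adcy7, Pde1c, Pde3b, Pde10a, Pde12 and Prkar1a. Among these, Prkar1a and Pde3b varied little, with group means from 14.1 to 14.35 and from 12.24 to 12.37. Rgs1, Rgs5 and Rgs10 varied most, with SDs over 2 within at least 1 group. The median SD of the 49 genes within a group was 0.34 in beta and 0.44 to 0.58 in the alpha groups.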

How the data were processed

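Sorted mouse islet cells gave 30 RNA-seq libraries in 5 groups, named by the labels; replicate numbers follow sample order only. The submitters' processing notes name GSNAP and the build GRCm38; the version, annotation and counting rule are not given in the sources used here. Values are deposited as log2 values for 17775 genes, made by the authors; equal quantiles in all libraries show quantile normalization. The depth is unknown: distinct values below the first quartile, which grow with depth, number 32 to 111 per library.

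The 16633 genes that reached 5 in 4 or more libraries were fitted with limma 3.58.1 in R 4.3.3, with 1 mean per group, an intensity trend and robust variances. P-values were two-sided, adjusted by Benjamini-Hochberg within each of 8 contrasts (threshold 0.05), after a check on simulated data. The members and gene lists were chosen with earlier results of these data known. Every gene the symbol rule found may be named; values by library are given for the 3 largest changes past the threshold in each contrast, and up to 3 genes per related list. Others are named as counts of 5 or fewer, and Rgs1, Rgs10 and Rgs5 after their values were seen. Alternatives were other filters (none, or 7), an offset of 64 on the linear scale, another variance model, library weights, rescaling, 2 covariates, fits of the compared groups alone and leaving out libraries.

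Positions are from GENCODE M21 and promoters from RefSeq (GRCm38.p6). Python 3.11.15, numpy 2.4.6, pandas 2.3.3 and matplotlib 3.10.9 made tables and figures. Reads and protein sequences were not analysed here.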

Additional observations from a re-analysis of the deposited data

Results flagged for a closer look

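Over the 11 genes given by library, 55 groups of libraries were checked for a library far from the rest of its group, and 7 were found, where chance gives about 1 in 20. Values are log2 values. The library labelled alpha Pdx1 DT 5 was low in Pde5a (7.33, others 9.0 to 9.98), in Rgs11 (8.32, others 10.15 to 10.88) and in Prkaca (10.15, others 11.56 to 12.13). The library labelled alpha 8 was high in Rgs11 (10.33, others 7.79 to 8.69). Alpha DT 3 was low in Rgs16 (5.21, others 7.91 to 8.21). Alpha DT 2 was high in Rgs4 (12.47, others 11.67 to 11.8), and beta 2 was high in Pde8a (11.6, others 10.86 to 11.15).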

How the results depend on the processing

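Of 74 differences past the threshold, 44 kept their call in every alternative and 56 in every fit that left out 1 library, and 1593 of 1743 refits in all kept the call. Among the differences between alpha groups, only that of Pde1b in alpha Pdx1 against alpha kept its call in every alternative. The rest of the 44 were differences between beta and an alpha group. The number of genes past the threshold when 1 library was left out is given with the share of all genes called. For beta against alpha it was 28 to 32 (30.7% to 35.7% of all genes). It was 3 to 5 for alpha DT against alpha (1.84% to 6.48%) and for alpha Pdx1 against alpha (1.81% to 5.92%). For alpha Pdx1 DT it was 2 to 11 against alpha (1.85% to 21%) and 2 to 4 against alpha Pdx1 (3.38% to 15.4%). Against alpha DT it was 2 to 4 (0.83% to 5.59%), and against beta 19 to 26 (22.5% to 26.2%). For the interaction it was 0 to 0 (0% to 0.018%). Leaving out the 5 libraries that stood apart gave 7, 7, 13 and 5 for alpha DT against alpha (4 with all libraries), alpha Pdx1 against alpha (4), alpha Pdx1 DT against alpha (5) and against alpha DT (3), in fits that called 3.26%, 6.61%, 20.3% and 5.73% of all genes. Library weights gave 2, 10, 10 and 1 in that order, beside 1.25%, 18.7%, 21.2% and 0.192% of all genes, and 7 for alpha Pdx1 DT against alpha Pdx1 (3), beside 22.7%. The counts of 10 are near that background and the count of 7 is below it. The leukocyte covariate gave 2 for alpha DT against alpha (0.836% of all genes), and 0 for alpha Pdx1 DT against alpha (0.511%) and against alpha Pdx1 (0.222%). The Rn18s-rs5 covariate gave 1 for alpha Pdx1 against alpha (0.685%) and 0 for alpha Pdx1 DT against alpha and against alpha Pdx1, where 0 of 16633 genes passed. In the last of these Rgs20 changed sign to 0.06; the cause was not tested. With only the compared groups fitted, which leaves fewer libraries, the count was 0 for alpha DT against alpha (0.397% of all genes) and for alpha Pdx1 DT against alpha and against alpha DT, where 0 of 16633 genes passed. No other direction of the 74 reversed in these alternatives. No paired analysis was possible because the labels give no replicate numbers shared by groups. The depth is unknown, which limits how far low values such as those of Rapgef3, Pde1a, Pde2a and Pde6c can be read.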
